A study of Mus musculus with 6 samples.

Results

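Adipocyte marker genes, 10 in number, were followed through 6 RNA-seq libraries of the tibialis anterior, a fast muscle of the lower hindlimb, to describe how much fat signal each library carries. The genes were listed by symbol, and their Ensembl identifiers found 10 of 10 among the 41025 genes of the tables. All mice were C57BL/6 and 8 weeks old. The genotype was given as wild type for 3 libraries and as Mettl21e KO for the other 3, and neither the way the knockout was made nor further alleles are stated in the sources used here. The libraries are called WT1, WT2 and WT3 (labelled wild type) and KO1, KO2 and KO3 (labelled knockout) by the replicate number in their titles. The design calls them biological replicates, but separate mice are not named, so each p-value covers only the spread from library to library. Values are FPKM, fragments per kilobase of gene length and per 1000000 fragments of the library, and 8476591 to 10856669 fragments stood behind a library.

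Fat cells store triglyceride in 1 large lipid droplet, which is coated with perilipins and CIDE proteins that hold back or grow the store. They also release signalling proteins called adipokines, and the nuclear receptor PPARG drives most of the genes that make a fat cell. In skeletal muscle, fat cells lie between the fibre bundles and around the nerves and vessels that enter the muscle, and they arise from fibro-adipogenic progenitors. The 10 genes differ in how closely they are tied to fat cells. Adipoq, Cfd, Retn, Lep, Plin1 and Cidec are taken here as restricted to fat cells within muscle (Cfd and Cidec with reservation), whereas Fabp4 and Pparg are also made by endothelial cells and macrophages, and Plin4 and Car3 by muscle fibres. In bulk tissue, fewer fat cells and less RNA per fat cell cannot be told apart.

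The FPKM of the targeted transcript did not tell the labels apart. Mettl21e was at 2.46, 0.309 and 1.23 FPKM in WT1, WT2 and WT3 and at 1.64, 1.45 and 1.88 FPKM in KO1, KO2 and KO3. Between 8 (WT2) and 63 (WT1) fragments stood behind these values. Gm15833 overlaps Mettl21e on the other strand, which makes them uncertain. A value per gene also cannot show which part of the transcript was present, so whether the knockout worked is not decided here. The label knockout is therefore used below only as a label. The tissue label was borne out by fibre genes, with Tnnt3, fast troponin T, at 16431 to 19932 FPKM and Acta1, skeletal actin, at 13695 to 19584 FPKM in the 6 libraries. Tnnc2, fast troponin C, was the exception among the 8 fibre markers and stood at only 0.374 to 1.45 FPKM, while Tnni2, fast troponin I, was at 9739 to 11668 FPKM. Whether the low Tnnc2 values reflect the transcript or a fault in the deposited values was not tested.

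Every library carried fat-cell transcripts, and the summed FPKM of the 6 fat-restricted genes differed 3.57-fold between the lowest and the highest. The 6 fat-restricted genes summed to 23.4, 44.3 and 57.3 FPKM in WT1, WT2 and WT3 and to 21.9, 16.1 and 27.9 FPKM in KO1, KO2 and KO3. In this sum WT3 and WT2 were the high libraries, KO2 was the lowest, and WT1 fell between KO1 and KO3. Cfd alone made 42.1% (KO3) to 66.7% (WT1) of the sum, so the order leans on it. For Adipoq, Lep and Plin1, WT1 was instead the lowest of the 6 libraries. In whole fragments, recovered from the FPKM values, the 6 genes together held 251, 506 and 504 fragments in WT1, WT2 and WT3 and 217, 176 and 256 in KO1, KO2 and KO3. Per 1000000 fragments this was 23.3 in WT1 (exact Poisson 95% interval 20.5 to 26.4), 46.6 in WT2 (42.6 to 50.9) and 57.0 in WT3 (52.1 to 62.2). It was 22.4 in KO1 (19.5 to 25.5), 16.9 in KO2 (14.5 to 19.6) and 30.2 in KO3 (26.6 to 34.1). The intervals of WT2 and WT3 lay above those of the other 4 libraries, and those of WT1 and KO1 overlapped. These intervals cover counting error only. The means were 41.6 ± 17.1 FPKM for the label wild type and 22.0 ± 5.93 FPKM for the label knockout (SD, n = 3 each), a log2 ratio of -0.92, given as a description without a test. Without Cfd the log2 ratio was -0.57, and with Fabp4, Pparg and Plin4 added it was -0.21.

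**Figure D1:**
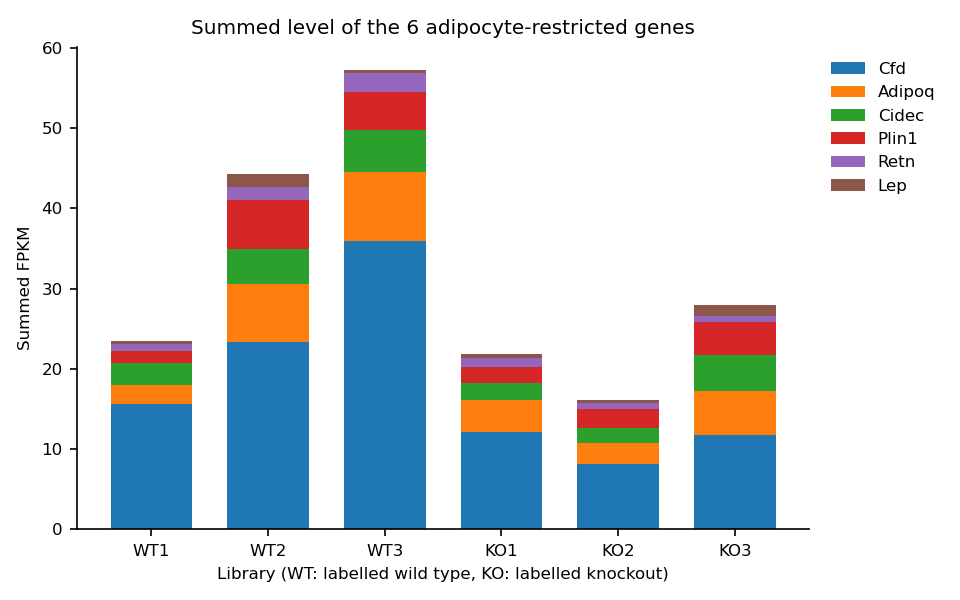
Stacked bars give the summed FPKM (vertical axis, from 0) of the 6 fat-restricted genes in each of the 6 libraries (horizontal axis), 1 colour per gene. WT3 (57.3 FPKM) and WT2 (44.3) stand above the other 4 libraries, and Cfd makes up 42.1% to 66.7% of each bar.

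The sum thus leaned on 1 gene. Cfd held 66.7%, 52.8% and 62.7% of it in WT1, WT2 and WT3 and 55.6%, 50.4% and 42.1% in KO1, KO2 and KO3, and Adipoq held 9.97% to 19.4%. The 6 genes did not all peak together. WT3 was highest for Adipoq, Cfd, Retn and Cidec, and WT2 for Lep and Plin1. The lowest library was WT1 for Adipoq, Lep and Plin1, and KO2 for Cfd, Retn and Cidec.

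The adipokines were described first, since they are the signals by which fat is usually recognised. Their control regions are shown for 3 of them that behaved differently: Adipoq, which tracked the common profile, Cfd, which had the clearest gap between labels, and Lep, which departed from the rest. That profile, described below, is a mean over 5 restricted genes. Adipoq and Cfd are among them, whereas Lep, with a mean under 1 FPKM, is not. The sequences are the 250 bases before the annotated start, 5′ to 3′ on the strand of the gene, from RefSeq on GRCm38.p6 (the assembly also called mm10): Adipoq at chr16:23146286-23146535 and Cfd at chr10:79890603-79890852, both on the plus strand, and Lep at chr6:29059971-29060220, also on the plus strand. Capitals mark matches on either strand to AGGTCA (a core word of nuclear receptor sites, PPARG among them), TTGCG (a core word of C/EBP sites), CCAAT and TATAAA.
Adipoq: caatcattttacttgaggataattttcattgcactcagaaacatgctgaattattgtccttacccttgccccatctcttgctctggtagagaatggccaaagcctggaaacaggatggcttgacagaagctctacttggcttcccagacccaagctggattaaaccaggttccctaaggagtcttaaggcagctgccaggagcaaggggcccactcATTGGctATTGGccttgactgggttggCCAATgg
Cfd: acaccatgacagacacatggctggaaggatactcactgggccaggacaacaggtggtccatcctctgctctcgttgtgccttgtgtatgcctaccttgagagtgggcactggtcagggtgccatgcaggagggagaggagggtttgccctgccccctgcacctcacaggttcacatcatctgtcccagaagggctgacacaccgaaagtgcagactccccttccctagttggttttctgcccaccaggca
Lep: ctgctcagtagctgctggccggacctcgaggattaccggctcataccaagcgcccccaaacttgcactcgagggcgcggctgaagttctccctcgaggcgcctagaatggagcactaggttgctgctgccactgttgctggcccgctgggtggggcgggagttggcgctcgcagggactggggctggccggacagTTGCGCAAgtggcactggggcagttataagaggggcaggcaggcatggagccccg
The Adipoq window holds 3 CCAAT matches, which begin 34, 27 and 7 bases before the start. The Lep window holds 2 overlapping TTGCG matches, 1 on each strand, which begin 55 and 52 bases before the start, and the Cfd window holds none of the 4 words. Of the 10 genes, 8 were found in the promoter table, Pparg with 3 windows and Cidec with 2. CCAAT occurred in 3 of these 8 genes (Adipoq, Plin4 and Pparg), where 33.8% of all 32851 windows of the same length hold it. TTGCG occurred in Lep alone (14.5% of all windows), and AGGTCA and TATAAA in Pparg alone (14% and 12.4%). The shares are per window, whereas Pparg and Cidec each count as 1 gene with several windows. Counts and shares are therefore not in the same unit. These matches are letters, and binding was not measured in these data.

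Adipoq encodes adiponectin, the most abundant hormone of fat cells, and lies on the plus strand of chromosome 16 (23146536 to 23158028, mm10, 3 exons in its longest coding transcript). It was at 2.34, 7.24 and 8.64 FPKM in WT1, WT2 and WT3 and at 3.94, 2.62 and 5.41 FPKM in KO1, KO2 and KO3. WT1 was the lowest of all 6 libraries and WT2 and WT3 the highest, and the values of the label knockout fell between them. The counts behind these values were 23 to 72 fragments. On the log2(FPKM + 1) scale used throughout, the difference of means (label knockout minus label wild type) was -0.40 (95% interval -1.28 to 0.47), with a range from -0.88 (without WT1) to -0.11 (without WT3) when 1 library was left out, and the exact two-sided permutation p was 0.4, in a design whose smallest possible p is 0.1.

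Cfd encodes adipsin, or complement factor D, a protease of the alternative complement pathway that fat cells secrete (chromosome 10, 79890853 to 79892655, plus strand, 5 exons). It was at 15.6, 23.4 and 35.9 FPKM in WT1, WT2 and WT3 and at 12.2, 8.10 and 11.8 FPKM in KO1, KO2 and KO3. All 3 libraries labelled wild type lay above all 3 labelled knockout, although the gap between WT1 and KO1 was small and their Poisson intervals (13.3 to 18.3 and 9.99 to 14.7 FPKM) overlapped. Its log2 difference was -1.10 (SE 0.27, 95% interval -1.72 to -0.48). It had the smallest limma unadjusted p of the tested members, 0.00338, and it missed the test after Benjamini-Hochberg adjustment over all 11383 tested genes (adjusted p = 0.988). The exact permutation p was 0.1, the smallest that 3 against 3 libraries can give.

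Retn encodes resistin, a small cysteine-rich adipokine (chromosome 8, 3655770 to 3660110, plus strand). It was at 0.924, 1.55 and 2.36 FPKM in WT1, WT2 and WT3 and at 1.02, 0.666 and 0.703 FPKM in KO1, KO2 and KO3. The order was like that of Cfd, but WT1 fell below KO1. Only 6 to 21 fragments stood behind each value. The Poisson intervals overlapped between all libraries except WT3 (1.46 to 3.61 FPKM) and KO2 (0.268 to 1.37 FPKM). Its log2 difference was -0.51 (95% interval -1.01 to -0.01, limma adjusted p = 0.988). At these low values the size depends on the pseudocount: it was -0.86 with 0.1, -0.93 with 0.01 and -0.86 in limma voom.

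Lep encodes leptin, the hormone that reports the size of the fat store to the brain (chromosome 6, 29060220 to 29073877, plus strand). It was at 0.303, 1.65 and 0.430 FPKM in WT1, WT2 and WT3 and at 0.616, 0.365 and 1.35 FPKM in KO1, KO2 and KO3. WT2 and KO3 were high and the other 4 low, so the split ran across the labels. WT3, the library with the most Adipoq and Cfd, had only 7 Lep fragments (95% interval 2.81 to 14.4), against 33 in WT2 (22.7 to 46.3). The ratio of Lep to Adipoq in FPKM was 0.0498 in WT3, 0.228 in WT2 and 0.249 in KO3, and 0.130 to 0.156 in the other 3 libraries. With a mean of 0.785 FPKM, Lep was the 1 member whose mean missed the 1 FPKM needed for testing. The means per label were 0.795 ± 0.745 and 0.776 ± 0.510 FPKM (SD, n = 3 each, exact permutation p = 1). With no filter its log2 difference was 0.02 (limma adjusted p = 0.997).

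The lipid droplet genes split into a pair that followed the adipokines and 1 that ran the other way. Plin1 encodes perilipin 1, the coat protein that guards the droplet of fat cells against lipases (chromosome 7, 79720218 to 79732903, minus strand). It was at 1.48, 6.12 and 4.70 FPKM in WT1, WT2 and WT3 and at 1.997, 2.39 and 4.17 FPKM in KO1, KO2 and KO3. As for Adipoq, WT1 was lowest and WT2 and WT3 highest, with KO3 closest to them. Its log2 difference was -0.31 (95% interval -1.18 to 0.55), and leaving out WT1 or WT2 moved it to -0.77 or -0.01.

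Cidec encodes a CIDE protein that lets small droplets merge into 1 large one (chromosome 6, 113424634 to 113435760, minus strand). It was at 2.76, 4.34 and 5.23 FPKM in WT1, WT2 and WT3 and at 2.16, 1.92 and 4.53 FPKM in KO1, KO2 and KO3. KO3 stood among the libraries labelled wild type, above WT2. Cidec had a log2 difference of -0.43 (95% interval -1.06 to 0.19, exact permutation p = 0.3), and with 1 library left out it ran from -0.72 (without KO3) to -0.26 (without KO2).

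Plin4 encodes perilipin 4, a coat protein of small droplets that fibres also make (chromosome 17, 56100591 to 56109803, minus strand). It was at 54.3, 31.3 and 30.9 FPKM in WT1, WT2 and WT3 and at 58.3, 49.8 and 33.9 FPKM in KO1, KO2 and KO3. The 3 libraries with the least Plin1, namely WT1, KO1 and KO2, had the most Plin4, and the ratio of Plin4 to Plin1 ran from 5.12 in WT2 to 36.6 in WT1. With 1572 to 3359 fragments a library, counting error was small beside these differences. The log2 difference was 0.29 (95% interval -0.28 to 0.87), the only positive one among the 9 tested members, and it ran from 0.13 (without KO1) to 0.55 (without WT1) with 1 library left out. Hdgfl2 overlaps Plin4 on the other strand, and since no source used here says whether reads were assigned by strand, the value of Plin4 is uncertain. The other perilipins, from a list of further fat-cell genes, were at 34.8 to 49.4 FPKM (Plin2), 12.7 to 28.6 FPKM (Plin3) and 7.67 to 19.1 FPKM (Plin5). These 3 were named after their values were seen.

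**Figure D2:**
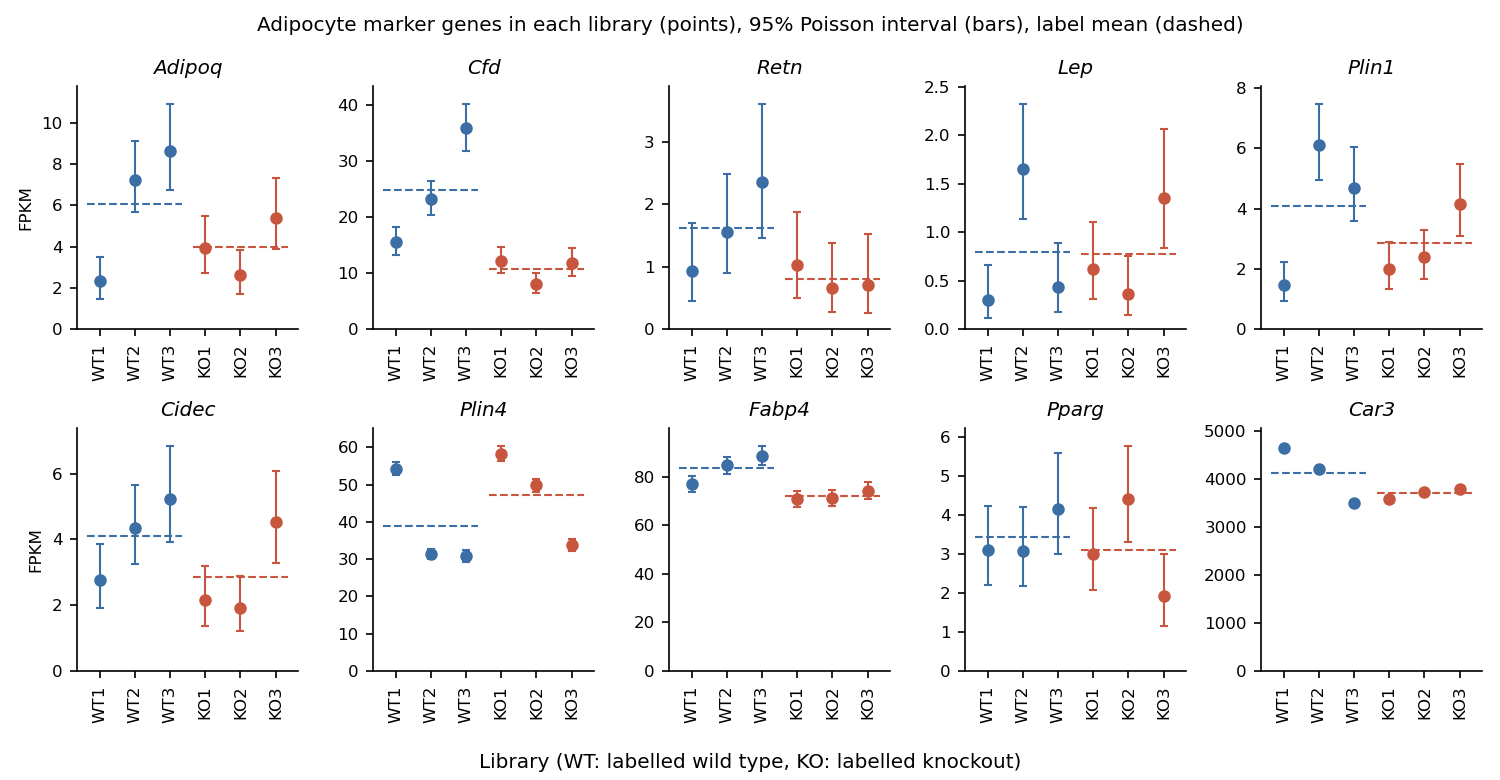
Each panel plots 1 gene, with FPKM on the vertical axis (from 0), the 6 libraries on the horizontal axis, bars for the exact Poisson 95% interval of each library and dashed lines for the mean of each label. WT3 and WT2 are high for Adipoq, Cfd and Plin1, WT3, KO3 and WT2 for Cidec, WT2 and KO3 for Lep, and WT1, KO1 and KO2 for Plin4.

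Fabp4 and Pparg varied less than the restricted genes or in another order. Fabp4 encodes a fatty acid carrier of fat cells, capillary endothelium and macrophages (chromosome 3, 10204088 to 10208576, minus strand). It was at 77.0, 84.6 and 88.6 FPKM in WT1, WT2 and WT3 and at 70.8, 71.0 and 74.2 FPKM in KO1, KO2 and KO3. The labels did not overlap, yet the highest value was only 1.25 times the lowest, against 3.70 times for Adipoq. The Poisson intervals of WT1 (73.7 to 80.3 FPKM) and KO3 (70.6 to 77.9 FPKM) overlapped. The log2 difference was -0.21 (SE 0.08, 95% interval -0.39 to -0.02, limma adjusted p = 0.988). Endothelial cells are another source of Fabp4: the 10 endothelial markers summed to 237 to 325 FPKM in the libraries labelled wild type and 264 to 294 FPKM in those labelled knockout, none of them at 0, and 8 of 10 had a lower estimate for the label knockout (median log2 difference -0.07). Their part in the Fabp4 values was not tested.

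Pparg encodes the nuclear receptor PPAR gamma, the main regulator of fat-cell formation (chromosome 6, 115360951 to 115490399, plus strand). It was at 3.11, 3.08 and 4.16 FPKM in WT1, WT2 and WT3 and at 3.00, 4.43 and 1.92 FPKM in KO1, KO2 and KO3. KO2, the library with the lowest fat-restricted sum, was the highest for Pparg, and KO3 was the lowest. Between 19 (KO3) and 54 (KO2) fragments stood behind these values. The Poisson interval of KO2 (3.33 to 5.78 FPKM) overlapped those of all other libraries except KO3 (1.16 to 3.00 FPKM). The log2 difference was -0.15 (95% interval -0.66 to 0.36), and with 1 library left out it ran from -0.37 (without KO2) to 0.08 (without KO3). Gm44079 overlaps Pparg in antisense, which makes its value uncertain too.

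Car3 encodes carbonic anhydrase 3, a cytosolic enzyme that is abundant in fat and in slow fibres (chromosome 3, 14863512 to 14872523, plus strand). It was at 4648, 4202 and 3501 FPKM in WT1, WT2 and WT3 and at 3576, 3737 and 3782 FPKM in KO1, KO2 and KO3, between 0.453% and 0.601% of all fragments of a library. WT1 and WT3 were its extremes, in the reverse order of their Adipoq values, and the libraries labelled knockout lay between them. Car3 had a log2 difference of -0.15 (95% interval -0.40 to 0.11), which was -0.05 without WT1, -0.26 without WT3 and -0.07 after quantile normalization. A sum over all 10 genes is therefore almost wholly Car3 (3682 to 4806 FPKM, of which the 9 others made 138 to 181), and its highest library was WT1, not WT3.

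Levels compared per length of gene put Car3 first (mean 3908 FPKM over the 6 libraries), followed by Fabp4 (77.7), Plin4 (43.1), Cfd (17.8), Adipoq (5.03), Cidec (3.49), Plin1 (3.48), Pparg (3.28), Retn (1.20) and Lep (0.785). Car3 and Fabp4 lay outside the range of their neighbours over the libraries. From Plin4 down, every pair of neighbours in this order overlapped in range, and in WT3 Cfd (35.9 FPKM) was above Plin4 (30.9 FPKM). The order rests on the length used for each gene. For 9 of the 10 genes the length used to turn the deposited values into whole fragments was within 1 base of the mean length of the annotated transcripts. That mean was chosen wherever it fitted, so the choice favours this agreement. By another count, the shortest fitting length equalled the rounded mean transcript length for 65.9% of the 11383 tested genes. Fabp4 has an intron-retaining transcript of 4231 bases beside its coding one of 896 bases, so its length was 2564 bases. Per kilobase of the longest coding transcript, Fabp4 would stand at 203 to 254 FPKM in place of 70.8 to 88.6. On that scale Adipoq would have a mean of 3.57, Plin1 of 1.78 and Lep of 0.443 FPKM, and Pparg (1.80) would pass Plin1. The length is the same in all libraries, so it leaves differences between libraries of 1 gene as they are on the FPKM scale.

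Across the labels, no member passed the test. Of the 9 tested genes 0 had a Benjamini-Hochberg adjusted p of at most 0.05 in limma, where 0 of 11383 genes (0%) were called. Unadjusted p was under 0.05 for 3 members, Cfd, Retn and Fabp4, all with lower estimates for the label knockout, against 523 of 11383 genes (4.59%, made up of 3.31% lower and 1.28% higher) in limma and 465 in limma voom on the recovered fragments. The labels did not overlap for 2 members, Cfd and Fabp4, both lower for the label knockout, and 0 members lay apart in the other direction. Of all tested genes 9.48% lay apart, 5.64% lower and 3.84% higher. Estimates were lower for 8 of 9 members (median log2 difference -0.31) and for 56.7% of all tested genes (median -0.02). The members share libraries and a likely source, so they are not independent. WT1 weighed most on these counts: without it 7 of 9 members had an unadjusted p under 0.05, 6 of them lower and Plin4 higher, against 11.9% of all genes tested in that fit (9.33% lower), and still 0 passed after adjustment (smallest limma adjusted p = 0.0853, for Cfd).

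**Figure D3:**
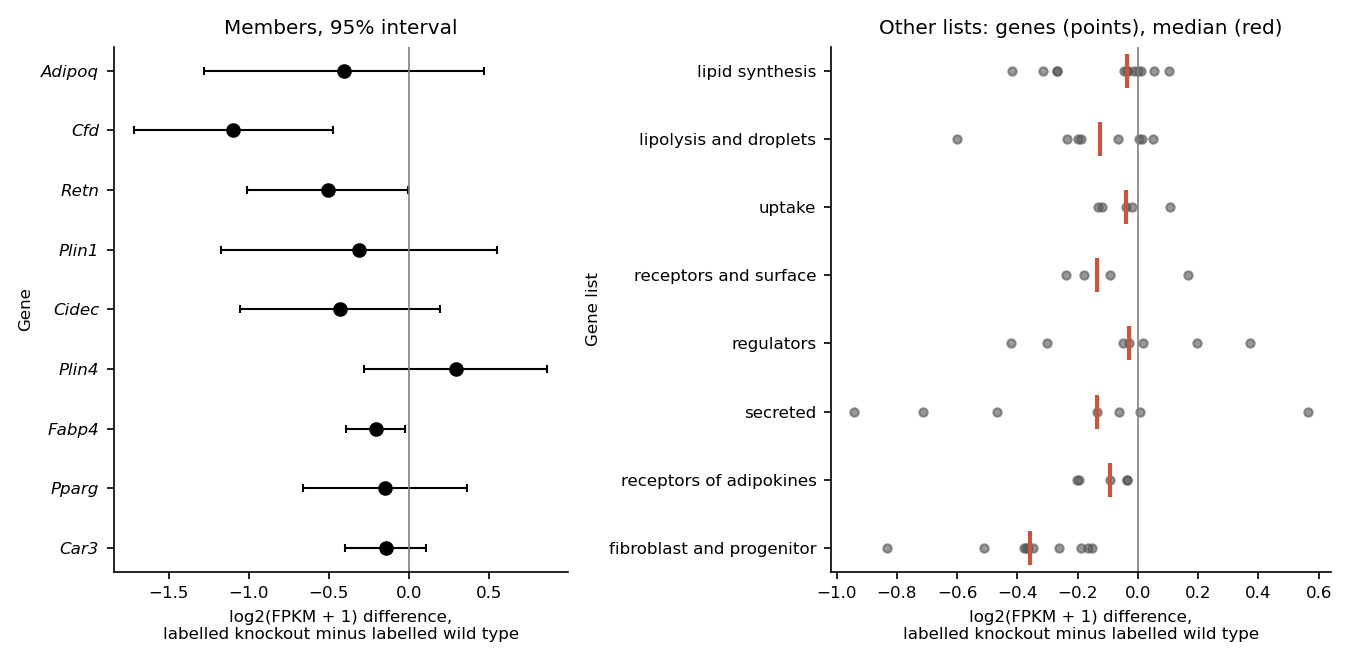
Left, log2(FPKM + 1) differences (labelled knockout minus labelled wild type) of the 9 tested members with limma 95% intervals. Right, the same difference for each tested gene of other lists, with the list's median in red. Cfd (-1.10) lies farthest from 0 on the left, and the medians of the fat-cell lists on the right lie between -0.14 and -0.03.

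Further genes that fat cells use ranged from level to more widely spread than Adipoq. Of 51 such genes 43 were tested, 29 with lower and 14 with higher estimates for the label knockout, a median log2 difference of -0.05, and 0 passed. The 6 most abundant are also muscle genes and were nearly level. Slc2a4, the insulin-responsive glucose transporter, was at 463 ± 21.7 FPKM for the label wild type and 459 ± 60.6 FPKM for the label knockout (SD, n = 3 each). Lpl, the lipase that frees fatty acids from lipoproteins, was at 259 ± 38.3 and 235 ± 7.30 FPKM, and Gpd1, which makes glycerol phosphate, at 239.5 ± 17.4 and 257 ± 7.33 FPKM. The fatty acid transporter Cd36 was at 157 ± 11.4 and 153 ± 18.5 FPKM, the triglyceride lipase Pnpla2 at 154 ± 32.0 and 155 ± 30.0 FPKM, and the growth hormone receptor Ghr at 96.7 ± 9.49 and 109 ± 14.0 FPKM. Their 95% intervals of the log2 difference all included 0.

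Among the less abundant of these genes, named after their values were seen, several stood highest in WT3 or WT2 and others in WT1 or KO1. Hp, which encodes the haemoglobin-binding protein haptoglobin, spread most (8.26-fold) among those of the 51 above 0 in every library. It was at 0.900, 1.99 and 5.31 FPKM in WT1, WT2 and WT3 and at 1.23, 0.642 and 1.23 FPKM in KO1, KO2 and KO3. Orm1 was at 0 in WT1, KO1 and KO2 and highest in WT3 (0.584 FPKM). Aoc3, an amine oxidase on the surface of fat cells, was at 7.14 FPKM in WT2, 6.12 FPKM in WT3 and 2.36 to 4.45 FPKM elsewhere. Adrb3, the adrenergic receptor of fat cells, was at 0.465, 0.645 and 1.13 FPKM in WT1, WT2 and WT3 and at 0.206, 0.240 and 0.295 FPKM in KO1, KO2 and KO3. Fasn, fatty acid synthase, was at 7.74 FPKM in WT3 and 2.52 to 3.76 FPKM elsewhere, and Scd1, the stearoyl-CoA desaturase, at 15.8 FPKM in WT3, 12.2 FPKM in KO3 and 4.17 FPKM in WT1. Retnla, a relative of resistin that macrophages also make, was at 9.02, 16.8 and 13.6 FPKM in WT1, WT2 and WT3 and at 4.82, 7.85 and 6.12 FPKM in KO1, KO2 and KO3, without overlap (log2 difference -0.94, limma adjusted p = 0.988). Klf15, a regulator of lipid and amino acid use in fat and muscle, had the opposite order, with 15.2 to 22.4 FPKM for the label wild type and 22.8 to 28.0 FPKM for the label knockout. Nnat was highest in KO1 (8.02 FPKM) and KO3 (7.65 FPKM) and lowest in WT3 (2.40 FPKM). Plin5 (19.1 FPKM) and Cebpb (30.1 FPKM) were highest in KO1. Elovl6 (0.659 FPKM), Cidea (1.12 FPKM) and Rbp4 (1.03 FPKM) were highest in WT1. The labels did not overlap for Rbp4, at 0.678 to 1.03 FPKM for the label wild type and 0.441 to 0.651 FPKM for the label knockout. Nor did they for Dgat1, Agpat2, Plin2, Zfp423 and Nrg4, all lower for the label knockout, as were Adrb3 and Retnla. Klf15 alone of the 51 lay apart in the other direction, and 9.48% of all tested genes lay apart. The genes named here are thus a selection from the 51.

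Of 8 brown-fat genes, 6 had a mean under 1 FPKM. Ucp1, which uncouples respiration in brown fat, had a value above 0 only in WT3 (0.0688 FPKM), and Elovl3 was at no more than 0.207 FPKM. Cidea was at 0.405 to 1.12 FPKM and Dio2 at 0.301 to 0.808 FPKM. Cox8b and Ppara, at 1136 to 1456 and 8.72 to 12.7 FPKM, are also expressed by muscle fibres. Of the receptors of adipokines, Adipor1 was at 113 to 122 FPKM and Adipor2 at 52.7 to 57.1 FPKM over the 6 libraries. The leptin receptor Lepr (chosen with its values in view) was at 0.889, 1.80 and 1.90 FPKM in WT1, WT2 and WT3 and at 1.55, 0.829 and 1.72 FPKM in KO1, KO2 and KO3. All 5 genes of that list had log2 differences between -0.20 and -0.04.

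The genes nearest in profile to the fat-restricted genes included several of the extracellular matrix. The mean deviation of log2(FPKM + 1) over the 5 restricted genes that passed the filter was -0.37, 0.49 and 0.71 in WT1, WT2 and WT3 and -0.31, -0.55 and 0.03 in KO1, KO2 and KO3. Among 11374 other tested genes, the 8 with the smallest mean absolute distance from it over the 6 libraries were Sfrp4 (0.07 log2 units), Anxa1 (0.08), Cd248 (0.09), Comp (0.10), Col1a2, Dnm1, Col12a1 and Lum (0.11 each), where the median gene was 0.41 away. Col1a2 and Col12a1 encode collagens, Lum a collagen-binding proteoglycan, Comp a matrix protein of tendon and cartilage, Cd248 a surface protein of fibroblasts and pericytes, Sfrp4 a secreted Wnt inhibitor, Anxa1 a phospholipid-binding protein and Dnm1 the membrane-cutting GTPase dynamin 1. Col1a2, for example, was at 31.0, 72.5 and 67.7 FPKM in WT1, WT2 and WT3 and at 34.8, 33.0 and 46.4 FPKM in KO1, KO2 and KO3. This likeness is a description over 6 libraries, with no p.

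Several marker lists of other cells stood high in WT2 and WT3 too. The 10 fibroblast and fibro-adipogenic progenitor markers summed to 281, 506 and 506 FPKM in WT1, WT2 and WT3 and to 287, 299 and 363 FPKM in KO1, KO2 and KO3. Dcn and Col3a1, their most abundant members, were at 94.4, 139 and 124 FPKM and at 38.2, 100.5 and 95.01 FPKM in WT1, WT2 and WT3, and at 94.04, 101.4 and 123.3 FPKM and at 39.9, 51.6 and 60.6 FPKM in KO1, KO2 and KO3. Dcn in KO3 was thus level with WT3. All 10 had lower estimates for the label knockout (median log2 difference -0.36), 0 passed, and none was at 0. Macrophage markers (10) summed to 27.1 to 68.6 FPKM for the label wild type and 28.9 to 35.2 FPKM for the label knockout, with Fcgr1 at 0 in KO2, and tendon markers (6) to 42.2 to 110 and 39.8 to 59.9 FPKM. Neutrophil markers (5) summed to 185 FPKM in WT3 and to at most 15.3 FPKM in the other 5 libraries. The part of these cells in the fat-gene values was not tested. Slow-fibre genes (6) had another order, with mean deviations of 1.05, 1.32 and -0.62 log2 units in WT1, WT2 and WT3 and -0.88, -0.26 and -0.61 in KO1, KO2 and KO3, a median log2 difference of -1.28, and 0 passed.

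**Figure D4:**
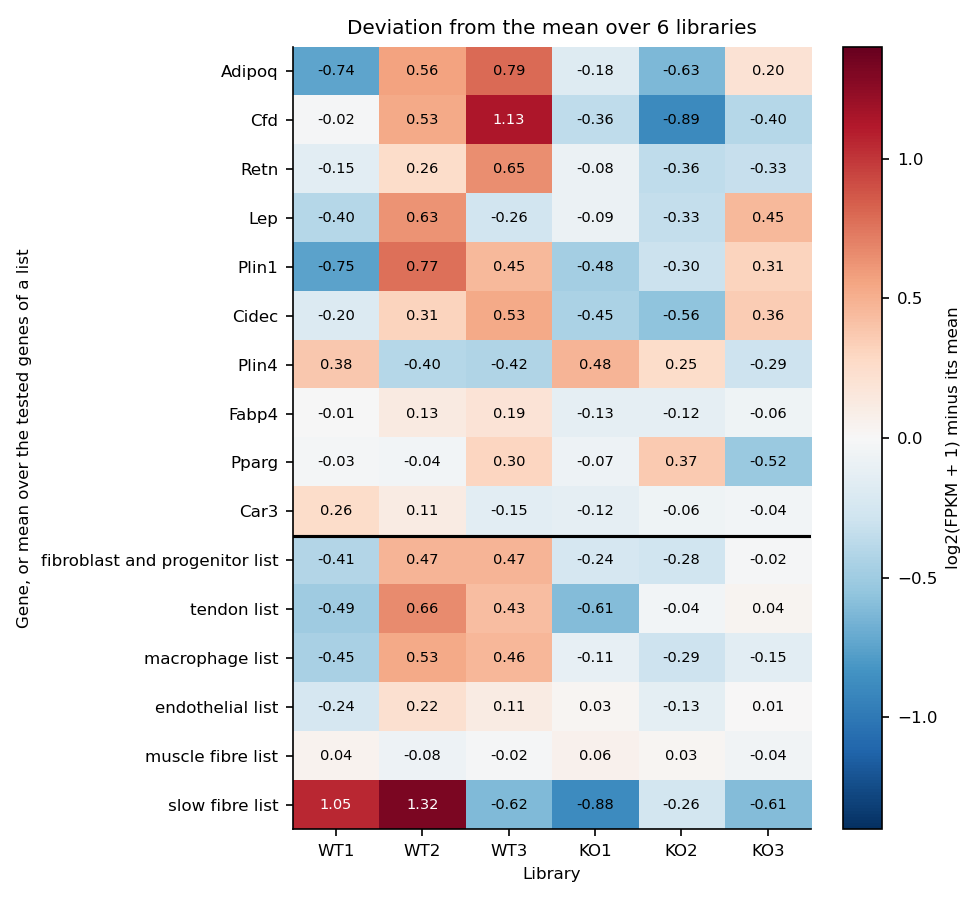
Each cell gives the deviation of log2(FPKM + 1) from its mean over the 6 libraries, for the 10 members (upper rows) and as a mean over the tested genes of 6 marker lists (lower rows), with libraries as columns. Adipoq, Cfd, Plin1 and Cidec and the fibroblast, tendon and macrophage lists are positive in WT2 and WT3, while Plin4 is negative there. Adipoq (0.20), Plin1 (0.31) and Cidec (0.36) are also positive in KO3.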

How the data were processed

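Total RNA from 6 tibialis anterior samples was sequenced, and the authors deposited 1 table per library with 1 FPKM value per gene. The submitters' processing notes name mm10, Cufflinks 2.2.1 and TopHat2 2.1.1. What each did, the gene annotation, strandedness and any filter: not given in the sources used here. Symbols, positions and transcripts came from GENCODE M21 (mm10) and promoters from RefSeq (GRCm38.p6).

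Library totals were recovered from the values. For all 23559 genes above 0, at least 1 whole length then made the values whole fragments in every library within 0.002 of a fragment. Several lengths can fit a gene with few fragments. The mean annotated transcript length was taken where it fitted, and the shortest fitting length otherwise. Fragments and exact Poisson 95% intervals (counting error only) rest on this choice. All members were above the floor of 3 fragments in every library. limma 3.58.1 in R 4.3.3 was run on log2(FPKM + 1), which understates changes of low genes, with a mean-variance trend, over the 11383 genes whose mean reached 1 FPKM and with Benjamini-Hochberg adjustment (threshold 0.05). It was tested on simulated data. Single genes were also compared by exact permutation tests. Members and lists were chosen with earlier results of these data known. The named genes were the members, the 6 most abundant further fat-cell genes, up to 2 of each other list and the 8 genes nearest to the mean profile, and others are said to be named after their values were seen. No 2 libraries agreed within sampling noise (chi-square over degrees of freedom 7.05 or more), so none was merged. Python 3.11.15, pandas 2.3.3, numpy 2.4.6, scipy 1.17.1 and matplotlib 3.10.9 were used.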

Additional observations from a re-analysis of the deposited data

How the results depend on the processing

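Under 15 alternatives (median centring, quantile normalization, pseudocounts of 0.1 and 0.01, no filter, a stricter filter at 5 FPKM, no mean-variance trend, a replicate block, limma voom on recovered fragments, and each library left out), 0 members were called. Over all genes 0 were called, except for 0 to 3 when 1 library was left out: 1 without WT1, 3 without WT3 and 1 without KO3. Genes with an unadjusted limma p under 0.05 (523 of 11383) became 1357 of 11425 without WT1, 341 of 11352 without WT3 and 343 of 11409 without KO2. They were 339 of 7416 with the stricter filter and 987 of 23559 with no filter, where the number of genes fitted changed as well. Directions of the 9 tested members held wherever they were fitted, except that Pparg, at -0.15, ran from -0.37 to 0.0759 with 1 library left out and was above 0 without KO3. Members under 5 FPKM could not be fitted with the stricter filter, Retn not without WT3, and Lep only with no filter. Leave-one-out differences ran from -0.88 to -0.11 for Adipoq and from -1.38 to -0.80 for Cfd. The log2 ratio of the restricted sum (-0.92) ran from -1.21 to -0.62 with 1 library left out. It moved to -0.21 with Fabp4, Pparg and Plin4 added and to -0.16 with all 10 members. With lengths of the longest coding transcripts, an alternative chosen after seeing the data, it was -0.998.

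Over all tested genes, deviations of same-numbered libraries correlated at 0.02, -0.04 and 0.02, and those of other pairs at -0.05 to 0.03. Such correlations cannot decide whether same-numbered libraries share a litter or batch that acts on few genes. With the replicate block 0 genes and 0 members were called, and the mean of the paired log2 ratios of the sum was -0.87. The block moved the unadjusted limma p from 0.151 to 0.0497 for Cidec and from 0.273 to 0.0656 for Plin4. It rose from 0.0481 to 0.0723 for Retn and from 0.0322 to 0.0487 for Fabp4. For Retn and Lep, 6 to 33 fragments a library limit the precision, and for Pparg 19 to 54 do.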
